A study of Rattus norvegicus with 12 samples.

Results

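A set of 10 genes of the antioxidant response, chosen by symbol from 22850 features, was followed in cultured rat atrial fibroblasts exposed to angiotensin II with or without mitochondrial peptides. They were the aldo-keto reductase Akr1c15, the carbonyl reductase Cbr3, the transcription factor gene Nfe2l2, which encodes NRF2, and its classical targets Nqo1, Hmox1, Gclc, Gclm, Txnrd1, Srxn1 and Slc7a11. The genes were picked with results of these libraries already known, so their levels and differences are given as a description. The fibroblasts came from the atria of Sprague-Dawley rats aged 1 to 3 days and were enriched by adhesion for 45 min, without a sort. All 12 libraries received angiotensin II (AngII) at 1 μmol/L for 48 h in medium with 2% FBS, so no group without AngII was compared. AngII is the peptide hormone of the renin-angiotensin system that drives fibroblast activation. In the AngII group it was given alone to 4 libraries, in the AngII+HNG group 4 libraries received it with HNG, an analog of the mitochondrial peptide humanin, at 10 μmol/L, and in the AngII+MOTS-c group 4 libraries received it with MOTS-c, another peptide encoded in mitochondrial DNA, at 5 μmol/L. Both peptides were added 1 h before AngII, and polyadenylated RNA was sequenced after 48 h.

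NRF2 is a transcription factor that is held at a low level by KEAP1, an adaptor that presents it to the cullin 3 ubiquitin ligase. Oxidants and electrophiles modify KEAP1, NRF2 accumulates, and together with small MAF proteins it binds antioxidant response elements in front of genes for glutathione synthesis, thioredoxin reduction, NADPH supply and the reduction of quinones and carbonyls. In the heart the pathway is known for limiting oxidative injury, and AngII is known to raise the production of reactive oxygen species in fibroblasts through NADPH oxidases.

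The libraries held 27960586 to 38322354 counts on genes, and the floor of 3 counts corresponded to at most 0.107 CPM, a limit that covers counting error only. CPM is the count of a gene scaled to a common library total after TMM normalization, and every member lay between 9.998 and 179.9 CPM in every library. Defining fibroblast genes were abundant, with Col1a1 at 3792 to 4429 FPKM and Vim at 1339 to 1449 FPKM over the 12 libraries. FPKM divides the count by gene length and library total and is used here to compare genes with each other. Cardiomyocyte genes were abundant too. The atrial natriuretic peptide gene Nppa had 2033 to 2817 FPKM, Actc1 748 to 1019 FPKM, Tnnt2 666 to 921 FPKM and Myh6 263 to 409 FPKM, and the part of myocytes in the levels of the 10 genes was not tested. The summed level of 16 macrophage markers was 292 to 352 CPM with AngII, 390 to 510 CPM with AngII+HNG and 287 to 347 CPM with AngII+MOTS-c, with 2 markers under 1 CPM and none at 0 in all libraries. The sum of 10 endothelial markers was 83.9 to 94.1, 105 to 116 and 87.2 to 93.8 CPM in the same order. In bulk RNA a change in the number of cells of a type and a change of RNA per cell cannot be told apart.

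The sequences bearing on NRF2 are shown first, because a short motif in front of a gene is what the factor is known to read. The RefSeq promoters of assembly GRCr8, each reaching from 250 bases before the transcript start to 50 bases after it, contained 9 of the 10 members, and Hmox1 was not in the table. The core of the antioxidant response element was searched as TGACNNNGC on both strands, the other strand reading GCNNNGTCA, where N is any base. It was found in 4 of the 9 members, Akr1c15, Gclm, Txnrd1 and Nfe2l2, and in 12.1% of 33469 promoters of the same length. The longer form TGACNNNGCA, which contains the core, was found in 3 of the 9 members and in 3.0% of all promoters. Capitals mark the motif and lower case the 10 bases on each side where the window allows, written 5′ to 3′ along the gene. Positions are those of the motif, counted from the first transcript base as 0, whereas the genome coordinates are those of the whole stretch shown, with its flanking bases.
Akr1c15 upstream match: aagatatttcTGCAGAGTCAtgaagggatt
Akr1c15 proximal match: tctgtaatctTGACCCCGCccatcttgac
Gclm: gtgcggtttcTGCTTAGTCAttgtcttcca
Txnrd1, second start: actggattttTGCTTTGTCAttctgacacg
Nfe2l2: gactagccatTGACGCCGCctc
Akr1c15 held both a 10-base match at -141 to -132 (stretch chr17:71118079-71118108, gene on the minus strand) and a shorter match at -69 to -61 (stretch chr17:71118008-71118036). The Gclm match lay at -173 to -164 (stretch chr2:213031952-213031981, plus strand) and the Txnrd1 match at -79 to -70 of the second of its 2 listed starts (stretch chr7:22755964-22755993, minus strand). In Nfe2l2 the core lay inside the transcript, at 38 to 46 (stretch chr3:81028950-81028971, minus strand). Srxn1 had no match to the core in the searched form TGACNNNGC. It held the AP-1 motif TGANTCA, a palindrome in these letters that occurs in 7.33% of promoters, at -62 to -56 (chr3:161064740-161064766 with 10 bases on each side, plus strand).
Srxn1: tctgagggccTGAGTCAccacgctgtg
It carried the same motif again at -5 to 1. Neither TGACNNNGC nor TGANTCA occurred in the windows of Cbr3, Nqo1, Gclc and Slc7a11, which says nothing of other forms or of sites outside the 300 bases. A match is a description of the sequence and not evidence that NRF2 was bound.

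Mean levels of the 10 genes over the 12 libraries spanned less than a factor of 10 per unit length. Nfe2l2 was the most abundant member with a mean of 67.9 ± 2.22 FPKM (SD, n = 12) and a range of 63.9 to 71.5, above every library of every other member, and stood at the 93.5th percentile of 14686 expressed genes. Txnrd1, the cytosolic thioredoxin reductase, followed at 37.3 ± 1.37 FPKM, then Akr1c15 at 33.8 ± 11.3, the quinone reductase Nqo1 at 30.1 ± 5.99, Gclc, the catalytic subunit of the first enzyme of glutathione synthesis, at 24.7 ± 1.59, and heme oxygenase Hmox1 at 19.0 ± 2.27. The ranges of each neighbouring pair from Txnrd1 down to Gclm overlapped, Gclm being the modifier subunit of the same glutathione enzyme at 15.6 ± 1.21 FPKM. Gclm lay at 14.1 to 17.8 FPKM and Cbr3 at 7.90 to 11.2, without overlap. Cbr3, the sulfiredoxin gene Srxn1 and the cystine transporter gene Slc7a11 had the lowest means, 9.77 ± 1.28, 8.95 ± 0.814 and 8.48 ± 0.895 FPKM, and their ranges overlapped. These SDs are over all 12 libraries and include the differences between treatments.

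The first comparison asked what HNG added to the response to AngII. Of the 10 members, 3 had an adjusted p below 0.05 (edgeR quasi-likelihood test, Benjamini-Hochberg over all genes), 2 of them higher and 1 lower with HNG, where 5.98% of 14524 tested genes were called, 3.4% higher and 2.58% lower. The 4 and 4 libraries did not overlap for the same 3 genes, Akr1c15, Hmox1 and Slc7a11, against 13.7% of all tested genes. Since the members were chosen with this contrast in view, nothing is read from these counts. The members were not displaced together: 4 were higher and 6 lower with HNG, their median log2 difference was -0.05, and the median over all tested genes was 0.0043.

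**Figure D1:**
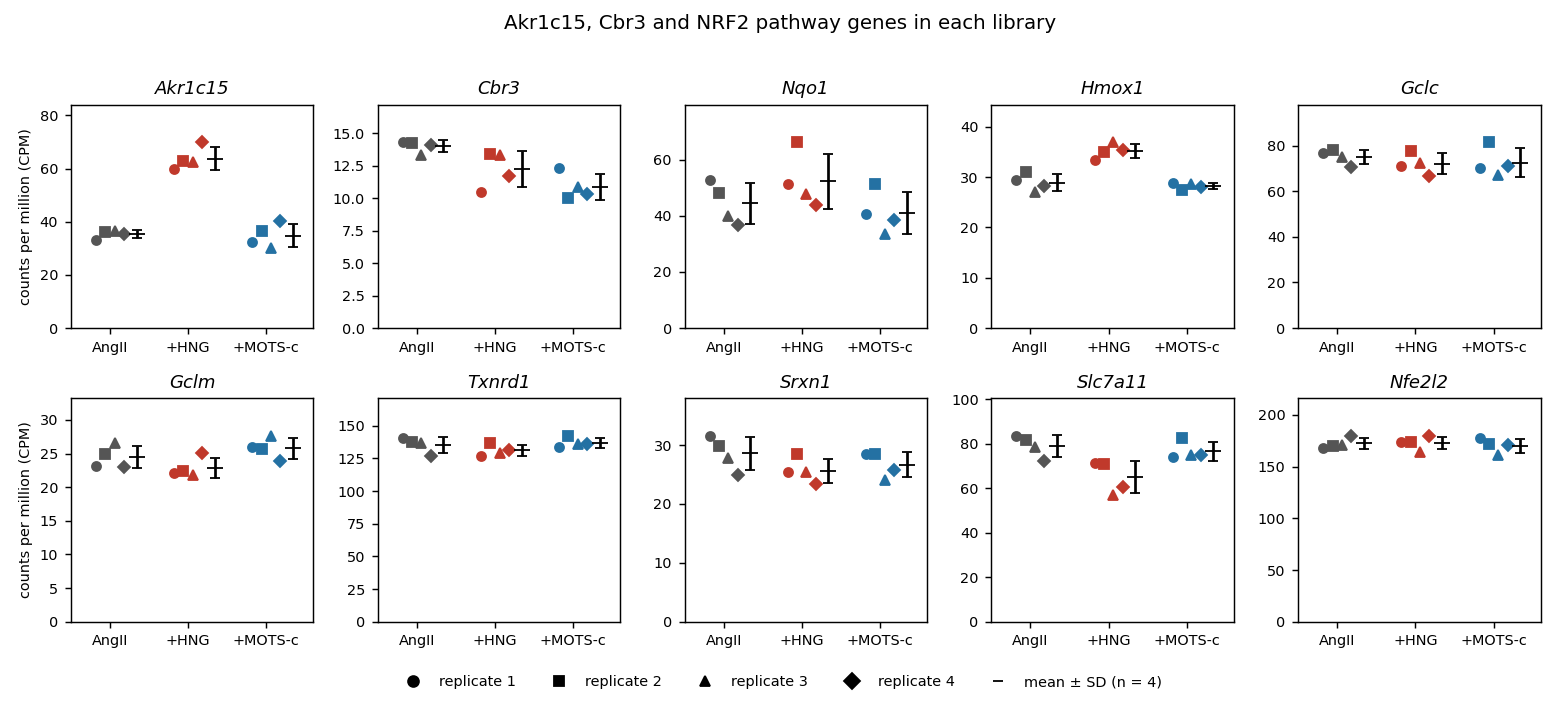
Level of each of the 10 genes in each library in CPM (linear axis from 0), with the 4 libraries of each treatment as separate symbols and the mean ± SD beside them. All 4 AngII+HNG libraries of Akr1c15, at 59.9 to 70.0 CPM, lie above the other 8 libraries, which reach 40.1 CPM.

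Akr1c15 showed the largest difference of any member. It belongs to the AKR1C branch of the aldo-keto reductases, enzymes that reduce carbonyl groups of steroids, prostaglandins and lipid aldehydes with NADPH. The AngII libraries 1 to 4 had 33.1, 36.0, 36.4 and 35.3 CPM. The AngII+HNG libraries had 59.9, 62.8, 62.4 and 70.0 CPM, and the AngII+MOTS-c libraries 32.4, 36.4, 30.3 and 40.1 CPM. Every library with HNG was above every library without it, while the MOTS-c libraries lay on both sides of the AngII ones. The means were 35.2 ± 1.48 (SD, n = 4), 63.8 ± 4.36 and 34.8 ± 4.35 CPM. The log2 difference of HNG from AngII was 0.86 ± 0.056 (SE), a fold of 1.82, whose absolute size was at the 99.1st percentile of all tested genes. Against MOTS-c it was 0.87 ± 0.080, a fold of 1.83. The call remained in all 19 alternative fits of each of these comparisons, with log2 differences of 0.81 to 0.89 from AngII and 0.81 to 0.95 from MOTS-c. MOTS-c differed from AngII by -0.01 ± 0.073.

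Hmox1, which degrades heme to biliverdin, iron and carbon monoxide, was the other member called higher with HNG. The AngII libraries had 29.4, 31.0, 27.1 and 28.1 CPM, the AngII+HNG libraries 33.4, 34.97, 37.0 and 35.4 CPM, and the AngII+MOTS-c libraries 28.8, 27.4, 28.6 and 28.0 CPM. The lowest HNG library was above the highest library of both other groups. The log2 difference from AngII was 0.29 ± 0.056 (SE), a fold of 1.22, and from MOTS-c 0.32 ± 0.051, a fold of 1.25. The call against AngII was kept in 18 of 19 alternative fits and lost without replicate 4 of both groups, where the difference was 0.27 ± 0.069, and the call against MOTS-c was kept in all 19. Hmox1 is also expressed by macrophages, and the macrophage marker sum was higher in the same 4 libraries. The part of those cells in the Hmox1 level was not tested.

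Slc7a11, the cystine and glutamate exchanger that brings in the precursor of glutathione, was lower with HNG. The AngII libraries had 83.7, 81.6, 78.8 and 72.2 CPM, the AngII+HNG libraries 71.3, 71.2, 57.1 and 60.6 CPM, and the AngII+MOTS-c libraries 73.9, 82.8, 74.9 and 74.9 CPM. The highest HNG library lay just under the lowest AngII library, and HNG replicates 3 and 4 were the lowest of all 12. The log2 difference was -0.28 ± 0.073 (SE) from AngII, a fold of 0.825, and -0.24 ± 0.071 from MOTS-c. The call against AngII was kept in 10 of 19 alternative fits. Leaving out AngII replicate 1, 2 or 3 or AngII+HNG replicate 3 or 4 ended it, with differences of -0.25, -0.27, -0.28, -0.22 and -0.24, and so did dropping replicate 4 of both groups, summing replicates 2 and 3, and limma on log2 FPKM. Against MOTS-c the groups did not overlap either, but the gene was called only by DESeq2 and in the fit blocked on replicate number.

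Nqo1, which reduces quinones by a transfer of both electrons at once, varied most between libraries of the same treatment. The AngII libraries had 52.5, 48.2, 40.1 and 36.8 CPM, the AngII+HNG libraries 51.3, 66.3, 47.9 and 43.7 CPM, and the AngII+MOTS-c libraries 40.8, 51.1, 33.4 and 38.3 CPM. The groups overlapped throughout. The log2 difference was 0.24 ± 0.128 (SE) of HNG from AngII, -0.11 ± 0.122 of MOTS-c from AngII and 0.35 ± 0.132 of HNG from MOTS-c, and only the last passed the threshold in any alternative, namely in the fit blocked on replicate number. The sizes rested on single libraries. Leaving out 1 library at a time gave 0.11 to 0.33 for HNG against AngII, the lowest without AngII+HNG replicate 2, and -0.24 to -0.021 for MOTS-c against AngII, the ends without AngII+MOTS-c replicate 2 and without AngII replicate 1. For HNG against MOTS-c it gave 0.21 to 0.47, the ends without AngII+HNG replicate 2 and without AngII+MOTS-c replicate 2.

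The remaining members differed little. Nfe2l2 itself had 168 to 180 CPM with AngII, 164 to 179 CPM with AngII+HNG and 161 to 177 CPM with AngII+MOTS-c, and its log2 difference with HNG was 0.01 ± 0.039 (SE). Txnrd1, at 127 to 141 CPM with AngII and 127 to 137 CPM with HNG, differed by -0.04 ± 0.042. Gclc, at 70.6 to 77.9 CPM with AngII and 66.5 to 77.7 CPM with HNG, differed by -0.05 ± 0.052. Gclm, at 23.1 to 26.6 CPM with AngII and 21.8 to 25.1 CPM with HNG, differed by -0.09 ± 0.066. Both subunits of the glutathione enzyme thus lay slightly lower with HNG, by less than the spread between libraries. Srxn1, which repairs overoxidized peroxiredoxins, had 24.9 to 31.6 CPM with AngII and 23.4 to 28.4 CPM with HNG, a difference of -0.15 ± 0.078.

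**Figure D2:**
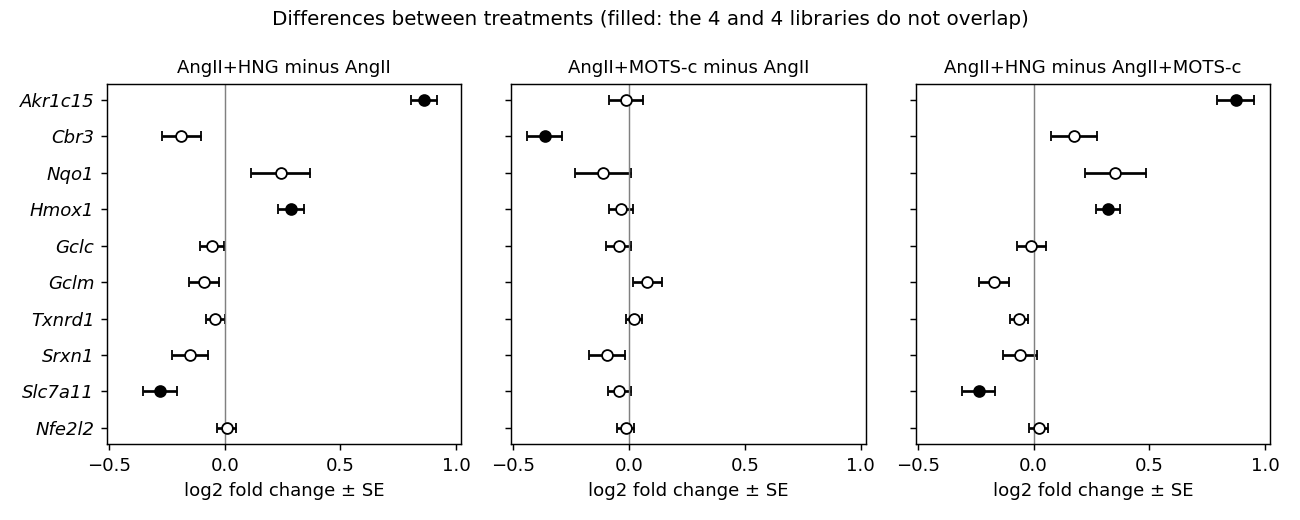
Log2 difference between treatments of each of the 10 genes with its standard error, in the 3 comparisons. Filled points mark genes whose 4 and 4 libraries do not overlap, which are Akr1c15, Hmox1 and Slc7a11 for HNG against either group and Cbr3 for MOTS-c against AngII.

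The second comparison asked what MOTS-c added to AngII. No member had an adjusted p below 0.05 by edgeR, DESeq2 or limma, and 0.0069% of 14488 tested genes, which is 1 gene, were called. At an unadjusted p below 0.05 there was 1 member, where 5.05% of all tested genes lay under that limit. Cbr3 was that member and the only one whose groups did not overlap, against 3.41% of all tested genes. Its enzyme reduces carbonyl groups of quinones and of drugs such as anthracyclines. The AngII libraries had 14.3, 14.2, 13.3 and 14.1 CPM, the AngII+HNG libraries 10.5, 13.4, 13.3 and 11.7 CPM, and the AngII+MOTS-c libraries 12.3, 9.998, 10.9 and 10.3 CPM. All 4 MOTS-c libraries lay under the lowest AngII library, while the HNG libraries overlapped both groups. The log2 difference of MOTS-c from AngII was -0.36 ± 0.075 (SE), a fold of 0.777 and the 96.0th percentile of absolute differences, and it stayed between -0.43 and -0.32 in all 19 alternatives without being called in any. HNG differed from AngII by -0.19 ± 0.085 and from MOTS-c by 0.17 ± 0.099. The other 9 members differed from AngII by -0.11 to 0.08 with MOTS-c. Both peptide comparisons used the same 4 AngII libraries.

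In the third comparison, of HNG with MOTS-c, 2 of 10 members were called, Akr1c15 and Hmox1, both higher with HNG, where 4.41% of 14448 tested genes were called and 2.64% were called higher. The groups did not overlap for these and for Slc7a11, against 12.6% of all tested genes. The HNG libraries are those of the first comparison, so these calls are no separate observation. Gclm had 23.9 to 27.7 CPM with MOTS-c, and its log2 difference of HNG from MOTS-c was -0.17 ± 0.066 (SE). For Gclc, Txnrd1, Srxn1 and Nfe2l2 the differences were between -0.06 and 0.02.

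Relatives of Akr1c15 and Cbr3 were followed by family name. Of 15 other tested Akr1, Akr7 and Cbr genes, 2 rose with HNG and none fell (edgeR quasi-likelihood test), where 3.4% of all tested genes were called higher. Akr1c14, the rat hepatic-type hydroxysteroid dehydrogenase that is the neighbour of Akr1c15 in RefSeq gene order, had 19.4, 19.7, 25.5 and 24.8 CPM with AngII, 27.7, 28.4, 32.0 and 38.9 CPM with AngII+HNG and 27.1, 18.9, 28.2 and 26.5 CPM with AngII+MOTS-c. It rose with HNG by 0.51 ± 0.116 on the log2 scale (SE, adjusted p = 0.0204), and the adjusted p was 0.0822 without AngII replicate 1 and 0.0785 without AngII replicate 2. Akr1c19 had 3.66, 3.17, 3.44 and 3.20 CPM with AngII, 5.11, 5.35, 5.10 and 5.64 CPM with AngII+HNG and 4.49, 2.96, 3.82 and 3.52 CPM with AngII+MOTS-c. It rose by 0.66 ± 0.104 (adjusted p = 0.00289). The call was absent with limma on log2 FPKM. Akr1c genes are close paralogs that may share reads, and the counting was not described for such reads, so the division of counts among Akr1c15, Akr1c14 and Akr1c19 is uncertain. Beyond Akr1c14 on the same side of Akr1c15, Akr1c3 and Akr1c12 differed by 0.08 and -0.14 with HNG, with adjusted p-values of 0.926 and 0.845. On the other side the adjacent Ucn3 differed by -0.48 and Net1, at the third place, by 0.30, with adjusted p-values of 0.547 and 0.0542.

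**Figure D3:**
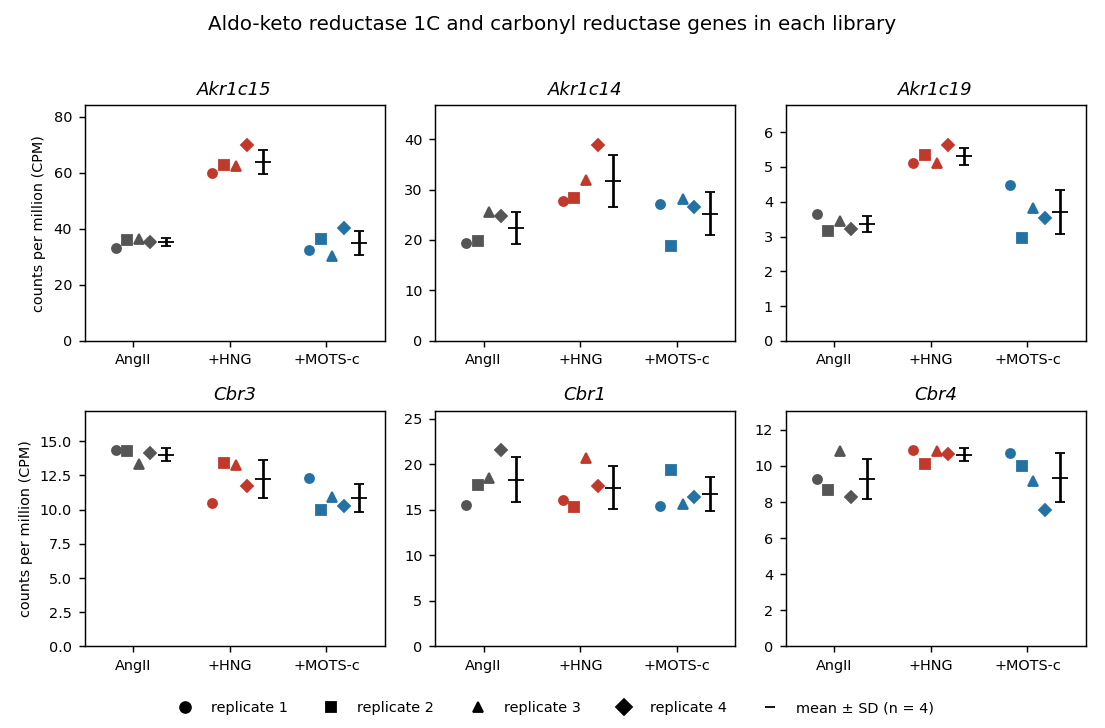
Level in CPM (linear axes from 0, one scale per gene) of Akr1c15, Akr1c14 and Akr1c19 in the upper row and of Cbr3, Cbr1 and Cbr4 in the lower row, for each of the 4 libraries per treatment, with the mean ± SD beside them. The AngII+HNG libraries of the 3 aldo-keto reductases lie above all AngII libraries, and the Cbr1 and Cbr4 libraries of the 3 treatments overlap.

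Among the other aldo-keto and carbonyl reductases with a mean of at least 1 CPM, the aldehyde reductase Akr1a1 differed by -0.0019 with HNG, aldose reductase Akr1b1 by -0.04, Akr1b8 by 0.20, Akr1b10 by 0.22, Akr1c1 by 0.05, Akr1e2 by 0.18 and Akr7a2 by 0.12. For Cbr1, the closest relative of Cbr3, the difference was -0.07 with HNG and -0.13 with MOTS-c, and for Cbr4, a mitochondrial carbonyl reductase, it was 0.20 and 0.02. None of these had an adjusted p below 0.05 in the main fit of any comparison. Akr1b8 was called with HNG in 2 of 19 alternative fits against AngII and in 6 of 19 against MOTS-c. No gene of the family was called with MOTS-c against AngII by edgeR, with 0 at an unadjusted p below 0.05. The Cbr3 value with MOTS-c, -0.36, was thus lower than that of both other carbonyl reductases, a difference that was not tested.

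The wider pathway was read from a list of 107 further NRF2 regulators and targets. The list and its groups were chosen with earlier results of these data known, so their counts here and below are a description. Of 98 that were tested, 13 rose and 1 fell with HNG (edgeR quasi-likelihood test), 32 had an unadjusted p below 0.05 where 20.3% of all tested genes did, and the median log2 difference was 0.07 against 0.0043 over all tested genes. Over all tested genes 5.98% were called. Without replicate 4 of both groups 12 were called, and leaving out single libraries gave 9 to 13, with 9 without AngII replicate 1 or without AngII replicate 3.

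Regulators of NRF2 did not pass the test. By edgeR 0 of 16 were called with HNG, where 5.98% of all tested genes were. At an unadjusted p below 0.05 there were 3, where 20.3% of all tested genes lay under that limit. DESeq2 called 1 of them and limma 0, and over all genes DESeq2 called 1205 against 869 by edgeR. Keap1 differed by 0.13 (adjusted p = 0.124) and Bach1, a repressor that competes with NRF2 at the same elements, by 0.15 (adjusted p = 0.0519). Sqstm1, which sequesters KEAP1 and had the highest level of this group at 118 FPKM with AngII, differed by 0.06.

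Genes of glutathione synthesis and use were read next. Of 23 tested, 5 rose and none fell with HNG, where 3.4% of all tested genes were called higher. Gsta1, a glutathione transferase, had 66.0, 72.5, 67.7 and 55.5 CPM with AngII and 83.1, 91.1, 98.8 and 80.9 CPM with AngII+HNG, without overlap, and rose by 0.44 ± 0.081 (SE, adjusted p = 0.00678). The microsomal transferase Mgst2 had 4.02, 4.14, 3.44 and 3.74 CPM with AngII and 6.57, 6.82, 8.49 and 4.66 CPM with AngII+HNG, and rose by 0.79 ± 0.158 (adjusted p = 0.0106). Mgst1 rose by 0.37 and Gstt1 by 0.34, with adjusted p-values of 0.018 and 0.041. The Mgst1 call was lost without AngII replicate 1 or 3 or AngII+HNG replicate 4, with adjusted p-values of 0.0577, 0.0543 and 0.0554. The Gstt1 call was lost whichever of the 8 libraries was left out, with adjusted p-values up to 0.107. Gpx1, the cytosolic glutathione peroxidase, went from 57.5 ± 3.80 to 68.8 ± 1.15 CPM (SD, n = 4) and rose by 0.26 (adjusted p = 0.00793). Slc3a2, the partner chain of the Slc7a11 transporter and the most abundant of the group at 177 FPKM with AngII, differed by -0.06 (adjusted p = 0.671). The synthesis enzyme Gss differed by -0.11 (adjusted p = 0.412), and the 5 genes that rose encode transferases and a peroxidase.

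Of 8 tested genes of heme and iron handling, Ftl1 and Fth1, the ferritin chains, rose with HNG, where 3.4% of all tested genes were called higher. Ftl1 went from 524 ± 15.0 to 633 ± 51.0 CPM (adjusted p = 0.00853) and Fth1 from 405 ± 9.42 to 462 ± 29.2 CPM (adjusted p = 0.0257), changes of 0.28 and 0.20 on the log2 scale. The Fth1 call was lost without AngII replicate 1, 2 or 3 or AngII+HNG replicate 4, with adjusted p-values of 0.104, 0.092, 0.0803 and 0.0661. Of 8 thioredoxin and peroxiredoxin genes only Txnip, a thioredoxin inhibitor that is not a classical NRF2-induced enzyme, rose, by 0.24 (adjusted p = 0.00922), and thioredoxin Txn1, at 297 FPKM with AngII, differed by -0.03.

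Me1, the cytosolic malic enzyme that yields NADPH, was the only gene of the wider NRF2 list that fell with HNG. It had 236, 239.9, 230.2 and 234 CPM with AngII, 208, 205, 177 and 191 CPM with AngII+HNG and 235, 242, 227 and 236 CPM with AngII+MOTS-c. The 4 HNG libraries lay below the other 8, and the log2 change was -0.26 ± 0.049 (SE, adjusted p = 0.00746). The other 6 tested NADPH genes did not pass the test, the transketolase gene Tkt differing by 0.01. Me1 and Slc7a11 were lowest in the same pair of libraries, HNG replicates 3 and 4.

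Of 30 tested genes for the reduction and conjugation of quinones, carbonyls and xenobiotics, 4 rose with HNG, where 3.4% of all tested genes were called higher. They were Akr1c14, Akr1c19, the epoxide hydrolase Ephx1 (0.33, adjusted p = 0.0103) and Adh7, a retinol dehydrogenase at 1.46 ± 0.470 CPM with AngII and 2.56 ± 0.367 CPM with HNG (0.82, adjusted p = 0.0497). Among 6 export pumps Abcc3 rose (0.31, adjusted p = 0.0225), and Abcc5, the most abundant, differed by 0.14 (adjusted p = 0.154). The Ephx1 call was lost without replicate 4 of both groups (adjusted p = 0.0532). The Adh7 call was lost without any single library except AngII replicate 2, and the Abcc3 call without AngII replicate 2, 3 or 4 or AngII+HNG replicate 2, with adjusted p-values up to 0.131 for Adh7 and 0.0735 for Abcc3 over the 19 alternatives.

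**Figure D4:**
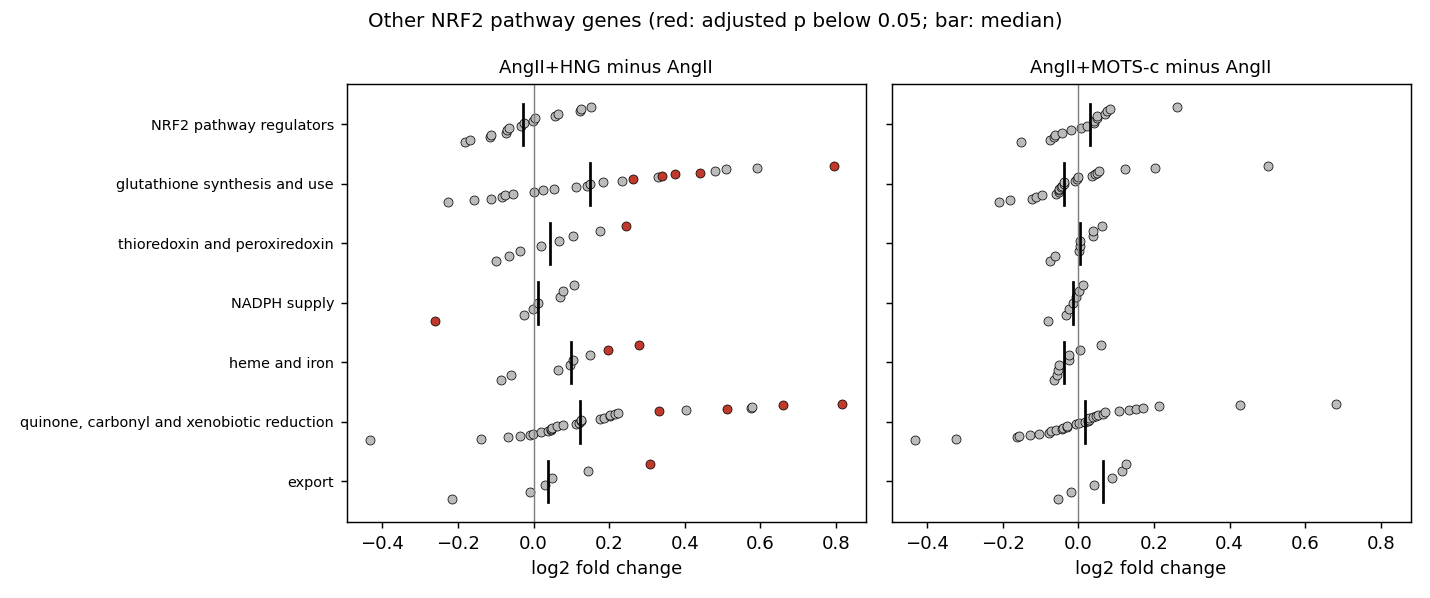
Log2 difference from AngII of each tested gene of the wider NRF2 list, grouped by role, for HNG on the left and MOTS-c on the right, with a bar at the median of each group. Red points mark genes with an adjusted p below 0.05, of which there are 14 with HNG and 0 with MOTS-c.

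With MOTS-c 0 of 99 tested genes of the wider list passed by edgeR, 0 by DESeq2 and 0 by limma, and 4 had an unadjusted p below 0.05 where 5.05% of all tested genes did. The median log2 difference was -0.0046, and 48 genes were higher and 51 lower. Between HNG and MOTS-c 12 of 97 were higher with HNG and Me1 was lower, beside 4.41% of all tested genes. Gsta1 differed by 0.55 ± 0.058 (SE, adjusted p = 0.000365) and Gpx1 had an adjusted p of 0.000638, Ftl1 of 0.00725, Me1 of 0.0102 and Mgst1 of 0.0124. Gpx4, Gstp1 and Ptgr1 passed here and not against AngII, with adjusted p-values of 0.0179, 0.0464 and 0.0358, and the remaining ones were Mgst2, Fth1, Akr1c19, Ephx1 and Adh7. Gsta1, Gpx1, Ftl1 and Mgst1 kept the call in all 19 alternatives, Me1 lost it without replicate 4 of both groups (adjusted p = 0.067), and the other 8 lost it without at least 1 single library. Leaving out single libraries gave 5 to 12 calls, with 5 without AngII+HNG replicate 2, 8 without AngII+HNG replicate 3, and 6, 8 and 7 without AngII+MOTS-c replicate 1, 2 and 3.

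Some marker genes of other cell types moved with the same contrast. The marker lists were also chosen with earlier results of these data known, so their counts are a description. Over all tested genes 3.4% were called higher with HNG. Of 15 tested macrophage markers 4 rose, among them Lyz2 by 0.75 (adjusted p = 0.000262), Cd68 by 0.69 (adjusted p = 0.00343) and Mrc1 by 0.55 (adjusted p = 0.00568). Of the 15, 3 had differences below 0 that did not pass the test, Adgre1 of -0.36, C1qc of -0.43 and C1qb of -0.05. Lyz2 alone went from 102 to 171 CPM in the mean, the largest share of the higher marker sum. Of 10 endothelial markers 4 rose, among them Tek by 0.40 (adjusted p = 0.00347), Tie1 by 0.42 (adjusted p = 0.0103) and Kdr by 0.43 (adjusted p = 0.0275), while Erg and Emcn had differences of -0.30 and -0.19 that did not pass. Of 10 cardiomyocyte markers only Tnni3 was called, higher by 0.43, and 2 lay lower. Of 8 epicardial and mesothelial markers only Upk1b was called, higher by 0.81, and 3 lay lower, down to -0.39. Their sums overlapped, with 58.8 to 71.4 CPM with AngII and 61.2 to 73.6 CPM with HNG. Of 12 fibroblast markers Tcf21 rose by 0.28 and Thy1 by 0.17, and 3 lay lower. The adjusted p-values of Tnni3, Upk1b, Tcf21 and Thy1 were 0.0131, 0.00776, 0.00746 and 0.022. None of the 6 Schwann cell markers tested was called by edgeR, DESeq2 or limma, with 1 at an unadjusted p below 0.05, where 20.3% of all tested genes lay under that limit. The summed cardiomyocyte markers were 7312 to 8251 CPM with AngII and 7514 to 8778 CPM with HNG, and the ranges overlapped. Several listed genes, ferritins and Gpx1 among them, are expressed in macrophages, and the part of other cells in the changes with HNG was not tested.

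Within treatments, 5 of the members varied together between libraries. For each gene the mean log2 CPM of its treatment was subtracted, and the 45 pairs of members were compared over the 12 libraries. Pearson's r was 0.61 to 0.93 (median 0.742) in the 10 pairs of Nqo1, Srxn1, Gclc, Txnrd1 and Slc7a11, and -0.39 to 0.62 (median -0.0576) in the other 35 pairs. These 5 genes were grouped after their values were seen. Nqo1 and Srxn1 had r = 0.93 and Spearman's rho of 0.944, and r = 0.94 without the 2 libraries farthest from the median. Nqo1 and Gclc had r = 0.90 and rho of 0.839, and r = 0.82 without them. Among 13084 genes with at least 1 CPM, Srxn1 was the first and Gclc the fourth most similar to Nqo1, with Bicd2 and Tnc between them, whereas Txnrd1 and Slc7a11 ranked 111 and 116. Their r with Nqo1 was 0.76 each, and 0.59 and 0.63 without the 2 farthest libraries. The points share library, depth and scaling, and the deviations of a treatment sum to 0, so the r values describe these libraries.

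**Figure D5:**
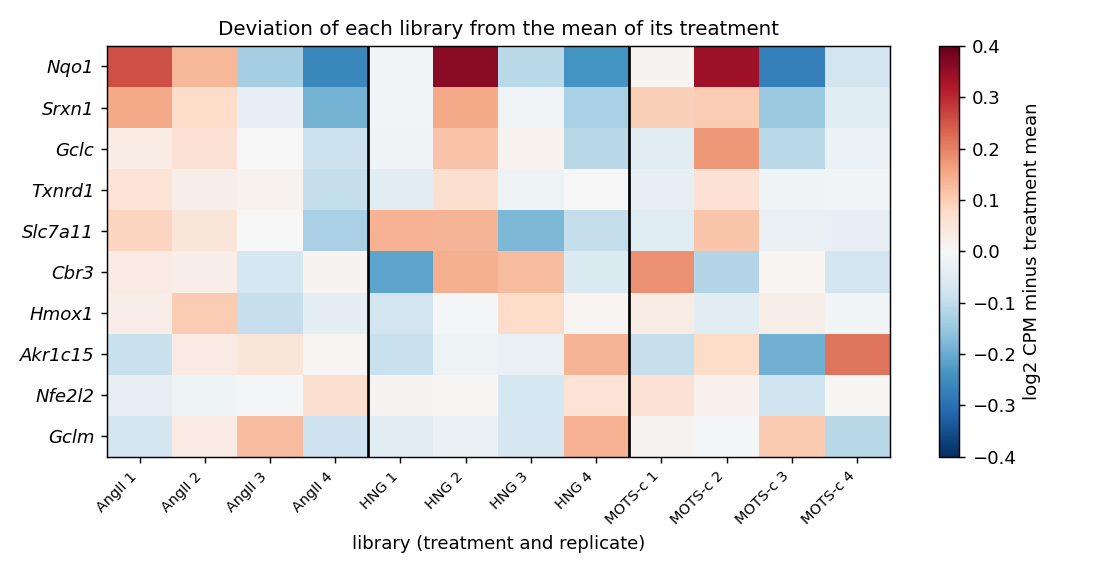
Deviation of each library from the mean of its treatment, in log2 CPM, for the 10 genes (rows) in the 12 libraries (columns). Nqo1, Srxn1, Gclc, Txnrd1 and Slc7a11 are mostly red (above the mean) in replicate 2 and blue (below it) in AngII replicate 4, while Akr1c15, Nfe2l2 and Gclm do not follow them.

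The mean deviation of the 5 genes was highest in replicate 2 of AngII+HNG (0.165) and of AngII+MOTS-c (0.157) and in replicate 1 of AngII (0.116). It was lowest in replicate 4 of AngII (-0.151) and of AngII+HNG (-0.115) and in replicate 3 of AngII+MOTS-c (-0.115). Nqo1 had the widest spread, with a residual SD of 0.250 log2 units, at the 99.3rd percentile of 4803 genes of similar level, and Akr1c15 and Hmox1 had 0.123 and 0.0622. The deviations of the macrophage marker sum ran against those of Slc7a11 (r = -0.83, rho = -0.860, and r = -0.82 without the 2 farthest libraries), Nqo1 (r = -0.80), Srxn1 (r = -0.80), Gclc (r = -0.78) and Txnrd1 (r = -0.56), and had r = 0.087 with Hmox1 and 0.38 with Akr1c15. With log2 of the total counts Nqo1 had r = 0.54. The part of cell composition or depth in this shared variation was not tested.

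Genes whose level over the 12 libraries was most like that of Akr1c15 were Cd34 (r = 0.97), Adamts5, Htra3, Rab7b and Ctsl (r = 0.97 each), all highest with HNG. Cd34, a surface marker of stromal progenitors, had means of 23.2, 44.1 and 20.9 CPM with AngII, AngII+HNG and AngII+MOTS-c. None of the 5 was among the first 5 by Spearman's rho or by deviations from the treatment means. For Cbr3 they were Fzd3 (r = 0.90), Tpm3 (r = 0.89), Gmpr2 (r = 0.85), Nudt11 (r = 0.83) and Fto (r = 0.82). The r with Tpm3 was 0.96 within treatments, and of these 5 genes 2 were shared with the order by Spearman's rho.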

How the data were processed

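Atrial fibroblasts in 12 cultures were sequenced as 4 libraries for each of 3 treatments, assigned from the sample titles. The authors made mRNA libraries for paired-end sequencing (DNBSEQ), and deposited for each gene the raw read count and the FPKM value, which corrects that count for gene length and library size. Per the labels HISAT2, Picard 1.41 and SAMtools 0.1.18 were used. The build, the read counter and whether strand was used are not given in the sources used here, so coordinates are given only for RefSeq promoters of GRCr8. The table held 22850 features, 4465 of them with 0 counts in all libraries, and totals of 27960586 to 38322354 counts, which set the floor of 3 counts.

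Rows were taken by symbol. The members, the wider NRF2 list (7 of whose symbols were not in the table), the AhR, ATF4 and marker lists, and the rules for named genes were chosen with earlier results of these data known. Named genes were all members, listed genes with an adjusted p below 0.05, the most abundant gene of each group, family members of at least 1 CPM, the 5 genes most like Akr1c15 and Cbr3, and up to 3 called markers per list. Outside these rules Bicd2, Tnc, Akr1c3, Akr1c12, Ucn3, Net1, Keap1, Bach1, Gss, Sesn2, Chac1 and the markers Adgre1, C1qb, C1qc, Erg, Emcn, Nppa, Actc1, Tnnt2, Myh6, Col1a1 and Vim were picked once their values were known.

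The count test was that of edgeR 4.0.16 (R 4.3.3). For every comparison only the 8 libraries concerned entered the fit, with filterByExpr, TMM, glmQLFit and glmQLFTest, Benjamini-Hochberg adjustment over all tested genes and a threshold of 0.05 with no fold limit. Standard errors were derived from the F statistic. CPM used TMM over all 12 libraries, and log2 CPM a prior count of 2. The script was tested on simulated data. Alternatives were DESeq2 1.42.0, limma 3.58.1 on log2 FPKM plus 1 or 0.1, RLE factors, other filters, a fit of all 12 libraries, blocks by replicate or library name number, and omission of libraries. The sources call the libraries biological replicates, but replicates 2 and 3 of each treatment share a number in the library name, and p-values measure only the spread between these libraries.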

Additional observations from a re-analysis of the deposited data

Results flagged for a closer look

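Among 111 groups of 4 libraries, the members and named relatives in each treatment, 7 held a library far from the other 3 by Dixon's test, where chance gives about 1 in 20 groups. For Slc7a11 it was AngII+MOTS-c replicate 2, with 82.8 CPM against 73.9 to 74.9 CPM in the others. Akr1a1 stood at 439 CPM in AngII+HNG replicate 3 against 375 to 385 CPM. Akr1c1 had 0.589 CPM in AngII+HNG replicate 4 against 1.13 to 1.21 CPM. Akr7a2 had 17.997 CPM in AngII+MOTS-c replicate 2 against 18.6 to 18.7 CPM. Abcc3 had 16.6 CPM in AngII replicate 4 against 19.3 to 19.7 CPM. Gstt1 had 5.30 CPM in AngII+MOTS-c replicate 1 against 6.48 to 6.67 CPM, and Ptgr1 had 20.2 CPM in AngII+HNG replicate 3 against 18.1 to 18.2 CPM.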

How the results depend on the processing

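The log2 differences of the 10 members moved by less than 1 SD of log2 CPM between libraries of a treatment in all 570 alternative values, and 0 called values changed sign. That SD is wide for Nqo1, whose difference of HNG from AngII ran from 0.11 to 0.33 and of MOTS-c from AngII from -0.24 to -0.015. For the 27 relatives and listed genes named by rule for which alternatives were computed, 1406 of the alternative calls were the same as reported, 24 were gained and 109 lost. Of the 14 listed genes called with HNG, Ftl1, Gpx1, Gsta1, Me1, Mgst2 and Txnip kept the call in all 19 alternatives. Gstt1 lost it whichever single library was left out and Adh7 without 7 of 8, with adjusted p-values up to 0.107 and 0.131. With HNG against AngII, 869 genes were called, 577 with replicates 2 and 3 summed and 541 without replicate 4 of both groups, and 431 to 932 without single libraries, the lowest without AngII replicate 1. Without replicate 4 of both groups 1 of the 3 members was called, Akr1c15, and 2 to 3 without single libraries, and the 14 wider list genes became 9 to 13. With MOTS-c the 1 gene became 3 with DESeq2, 2 with the replicate block, 0 with all 12 libraries, 0 with replicates 2 and 3 summed, 0 without replicate 4 of both groups and 0 to 3 without single libraries. Between HNG and MOTS-c 637 genes became 1042 with DESeq2, 975 with all 12 libraries, 1054 with the replicate block, 377 without replicate 4 of both groups and 322 to 625 without single libraries. The 13 wider list genes of that comparison became 8 with replicates 2 and 3 summed and 5 to 12 without single libraries, and the 2 members became 4 with the replicate block. The causes were not tested. Libraries with the same replicate number were not treated as paired, since not every correlation of their deviations was over 0.1. It was -0.0276 to 0.119 between HNG and AngII, 0.0202 to 0.134 between MOTS-c and AngII and -0.0096 to 0.245 between HNG and MOTS-c, where replicates 2, 3 and 4 were over 0.1 and correlated best with their own number. Between MOTS-c and AngII replicates 1, 3 and 4 also correlated best with their own number, and between HNG and AngII replicate 4 did. With the replicate block 1111 genes were called with HNG, 3 of them members and 17 of the wider list. Genes near 1 CPM, such as Adh7 and Akr1c1, rest on few counts.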

Other observations

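Other stress pathways that touch the same genes were read from separate lists. These lists too were chosen with earlier results of these data known, so their counts are a description. ATF4 acts in the integrated stress response, the pathway that also drives Slc7a11 in many cells. All 12 genes of the ATF4 list lay lower with HNG than with AngII, with a median log2 difference of -0.11 against 0.0043 over all tested genes. The list counts Atf4 itself, whereas Sesn2 and Chac1 were placed in the NRF2 lists. Their means were 64.7 and 40.9 CPM with AngII and 65.3 and 36.5 CPM with HNG, so the count depends on how the lists were divided. Of the 12 listed genes, 8 had an unadjusted p below 0.05, where 20.3% of all tested genes did. Only Mthfd2, at -0.23, had an adjusted p below 0.05 (edgeR, adjusted p = 0.0128), and DESeq2 called 3. The Mthfd2 call was lost without replicate 4 of both groups (adjusted p = 0.068). The groups did not overlap for 4 of the 12, against 13.7% of all tested genes. With MOTS-c 9 of the 12 were lower, the median was -0.04, and 0 were called by edgeR, DESeq2 or limma. At an unadjusted p below 0.05 there was 1, where 5.05% of all tested genes lay under that limit. Of 5 tested genes of the aryl hydrocarbon receptor list, 0 were called with HNG by edgeR, DESeq2 or limma. The list holds the receptor gene Ahr and its partner Arnt besides targets and a repressor. At an unadjusted p below 0.05 there were 2, and the differences were -0.32 to 0.18.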
